A study of Mus musculus with 59 samples.

Results

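The genes described here are 34 genes of the oligodendrocyte lineage, out of 54232 mouse genes counted in each library, and they were followed through 5 brain regions of 3 genotypes of mice. They were taken as a named list of known genes, and the list was chosen with earlier results of these data known. The list holds 14 genes grouped as myelin sheath genes, mostly for its structural and membrane proteins. Hapln2, which encodes a matrix link protein, is counted with them. There are 10 lipid, metabolic, secreted and other genes of mature oligodendrocytes. The remaining genes are 5 transcription factors of the lineage and 5 genes of precursors and newly formed cells. RNA was sequenced from 12 C57BL/6 mice aged 10 weeks, 4 per genotype, and each mouse gave 1 library per region except for 1 brainstem, leaving 59 libraries. Wildtype mice (WT) were compared with Atxn1 154Q/2Q mice (154Q), a knockin model of spinocerebellar ataxia type 1 in which an expanded CAG repeat was placed in the endogenous mouse Atxn1 gene. The second mutant, Atxn1 154Q[V591A;S602D]/2Q (154QAXH), carries the same expanded allele with substitutions V591A and S602D in the AXH domain, which were introduced to break the binding of ATXN1 to the repressor CIC. Both mutants therefore carry the repeat in every cell that uses the gene, on 1 of the 2 alleles, and gene-level counts cannot reveal either the repeat or the substitutions. The question put to the data was whether the lineage genes differed between genotypes and regions, and whether the mature and precursor genes differed alike.

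Oligodendrocytes wrap axons in myelin, a stack of membrane that speeds conduction and is rich in cholesterol and galactolipids. They arise from proliferating precursors that carry the PDGF receptor alpha and the NG2 proteoglycan, pass through a short premyelinating stage, and then turn on the sheath proteins under SOX10, OLIG1, OLIG2, MYRF and NKX6-2. White matter tracts are dense in the brainstem and sparser in cortical tissue. In such bulk samples fewer cells of a type and less RNA per cell cannot be told apart.

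Total counts per library ran from 64416717 to 112343574 in the cerebellum, brainstem and hippocampus, and from 28058359 to 54719126 in the striatum and cortex. Mice are named by genotype and by the number in the labels, whose titles write SCA1 for 154Q, for example WT-70, 154Q-69 and, for 154QAXH, 154Q-AXH-207. The hippocampal library of 154Q-76 stood apart, with a summed level of 14 brainstem neuron and hindbrain genes of 341.4 CPM against at most 5.025 CPM in the other 154Q hippocampi. In the cortex, the names of the files and the labels disagreed for 154Q-76 and 154Q-AXH-207, and the labels were followed. The 154Q mice have numbers under 100 and the 154QAXH mice numbers over 200, with WT mice in both ranges (WT-70 and WT-77, WT-220 and WT-221). A difference between the mutants and a difference between these number series therefore cannot be told apart. Levels are given as CPM, the counts of a gene relative to the total of its library, with the TMM scaling of edgeR within a region. Differences are log2 fold changes from edgeR with their standard error (SE), and a gene was called when its Benjamini-Hochberg adjusted p over all genes tested was under 0.05. Counts of genes at an unadjusted p under 0.05 are given without the share of all genes, so they cannot be read as particular to a list.

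Upstream sequence is shown for 4 of the genes because the second mutant was made to separate ATXN1 from CIC, a repressor that binds the octamers TGAATGAA, TGAATGGA, TCAATGAA and TCAATGGA, and because SOX10, one of the 34 genes, binds motifs around ACAAAG. A RefSeq promoter from 250 bases before to 50 bases after the start (build GRCm38.p6) was matched by symbol for 23 of the 34 genes, Gpd1 not being among them. Searched on both strands, any of the CIC octamers was present in 3 of the 23, against 4.45% of 27025 genes and 3.84% of all 32851 promoters. The matches lay 167 bases before the RefSeq start of Gpr37, 159 bases before that of Olig2 and 22 bases before that of Mog, and are in capitals below. In GENCODE M21 Gpr37 runs from 25665878 to 25690729, so its window lies inside that gene model.
Gpr37, chr6:25690110-25690177, minus strand: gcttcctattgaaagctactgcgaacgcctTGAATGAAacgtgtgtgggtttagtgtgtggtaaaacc
Olig2, chr16:91225361-91225428, plus strand, octamer on the opposite strand: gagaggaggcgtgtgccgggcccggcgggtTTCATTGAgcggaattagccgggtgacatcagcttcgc
Mog, chr17:37023399-37023450, minus strand: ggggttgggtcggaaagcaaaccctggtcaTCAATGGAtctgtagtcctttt
The letters ACAAAG were found in 9 of the 23 promoters, against 21% of genes and 18.7% of all promoters, and CAGCTG, an E-box of the kind that OLIG proteins can bind, in 4 of 23, against 18.3% and 16.3%. Mobp, which encodes a small basic protein of compact myelin, had 6 copies of ACAAAG in the 250 bases before its start, each on the opposite strand and in capitals here.
Mobp, chr9:120149492-120149741, plus strand: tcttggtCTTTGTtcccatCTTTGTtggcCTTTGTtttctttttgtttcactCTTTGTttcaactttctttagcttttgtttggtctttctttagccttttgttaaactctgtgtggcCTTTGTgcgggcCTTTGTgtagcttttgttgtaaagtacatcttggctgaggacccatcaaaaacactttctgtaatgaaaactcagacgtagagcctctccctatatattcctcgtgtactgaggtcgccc
These matches describe the letters of the window and were not tied to any difference in level.

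In WT mice the brainstem held the highest level of 27 of the 34 genes. The exceptions were Ppp1r14a, Nkx6-2, Olig1 and Gpr17, highest in the striatum, Pdgfra and Cspg4, highest in the hippocampus, and Gpd1, highest in the cerebellum. The lowest level was in the cerebellum for 17 genes, in the cortex for 11 and in the hippocampus for 6. Against the cerebellum, 34 of 34 genes were called, 33 of them higher in the brainstem, where 65.4% of all genes tested were called. Against the hippocampus 31 were called and 30 were higher (background 60.7%), against the striatum 25 were called and 23 were higher (66.1%), and against the cortex 31 were called and 29 were higher (65.1%). The median log2 difference over the 34 genes was 1.54 against the cerebellum, 1.33 against the hippocampus, 0.61 against the striatum and 1.24 against the cortex, with the medians of all genes between -0.04 and 0.05.

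**Figure D1:**
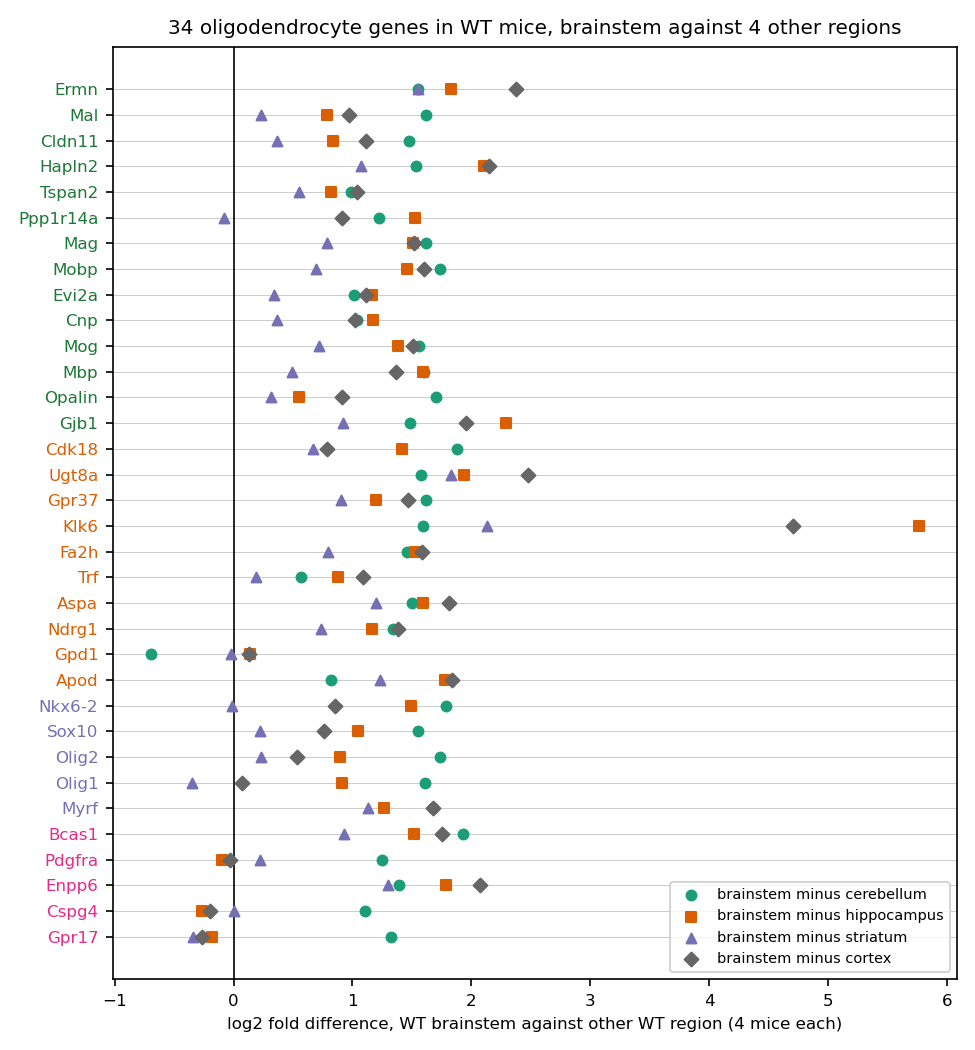
Log2 fold difference (x axis) between WT brainstem and each of 4 other WT regions for the 34 genes (y axis, names coloured by group: green sheath, orange lipid, metabolic and secreted, violet factors, pink precursor and newly formed), 4 mice per region. Symbols give the region compared. Most symbols lie right of 0, the triangles for the striatum lie nearest to 0, Klk6 lies far to the right against hippocampus and cortex, and Gpd1, Pdgfra, Cspg4 and Gpr17 lie near 0 for most regions.

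Among the sheath genes, Mbp, which encodes the protein that holds the cytoplasmic faces of compact myelin together, was the most abundant per kb of exon. Its WT level was 958.8 ± 49.6 CPM per kb in the brainstem (SD, n = 4), 682.6 ± 205.3 in the striatum, 372.6 ± 37.5 in the cortex, 317.7 ± 37.0 in the hippocampus and 316.1 ± 29.1 in the cerebellum. The WT libraries of brainstem and striatum overlapped for Mbp, as did those of cortex and hippocampus and of hippocampus and cerebellum. Mobp followed in the brainstem at 419 ± 54.6 CPM per kb, then Cnp, the phosphodiesterase of non-compact myelin, at 233 ± 24.9 and Mal, a raft proteolipid of the sheath, at 226 ± 35.0. Opalin, a transmembrane glycoprotein of the sheath, was low in this group at 18.3 ± 2.77 CPM per kb. The ratio of the highest to the lowest regional mean ran from 2.05 for Tspan2, a tetraspanin, to 5.20 for Ermn, a cytoskeletal protein of the outer sheath, with a median of 3.05 over the 14 genes.

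Klk6, which encodes a secreted serine protease of oligodendrocytes, varied most across WT regions. Its level was 36.9 ± 2.97 CPM per kb in the brainstem, 12.2 ± 1.39 in the cerebellum, 8.23 ± 5.17 in the striatum, 1.41 ± 0.635 in the cortex and 0.675 ± 0.276 in the hippocampus (SD, n = 4 each). Brainstem thus stood 54.6-fold above hippocampus in these means, and the fitted log2 difference was 5.76 (SE 0.35, adjusted p = 1.4e-11). Ugt8a, which makes galactosylceramide, and Fa2h, which hydroxylates the fatty acids of myelin lipids, differed between brainstem and cortex by 2.48 (SE 0.14) and 1.59 (SE 0.13) on the log2 scale. Gpd1, the cytosolic glycerol-3-phosphate dehydrogenase that links glycolysis to lipid synthesis, did not follow the others. It lies on chromosome 15 from 99717515 to 99725005 on the plus strand, and its WT level was 43.5 ± 7.16 CPM per kb in the cerebellum and 24.5 to 27.3 in the other regions. Its brainstem level was lower than in the cerebellum (log2 difference -0.69, SE 0.09, adjusted p = 1.3e-06), while the intervals of its differences from hippocampus, striatum and cortex (2 SE) ran from -0.05 to 0.32, -0.20 to 0.16 and -0.05 to 0.32.

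The precursor genes divided. Pdgfra and Cspg4, which encode the PDGF receptor alpha and NG2, ranged 2.53-fold and 2.59-fold between the highest and the lowest regional mean, with the cerebellum lowest for both. Pdgfra was 5.81 ± 0.217 CPM per kb in the hippocampus, 5.54 ± 0.183 in the cortex, 5.43 ± 0.175 in the brainstem, 4.64 ± 0.228 in the striatum and 2.29 ± 0.208 in the cerebellum. Hippocampus and cortex overlapped, as did cortex and brainstem. Gpr17, a receptor of committed precursors, was lower in the brainstem than in the striatum by 0.34 (SE 0.11, adjusted p = 0.0098) and than in the cortex by 0.27 (SE 0.11, adjusted p = 0.04). Enpp6 and Bcas1, both markers of newly forming oligodendrocytes, instead followed the sheath genes, with brainstem above cortex by 2.08 (SE 0.12) and 1.75 (SE 0.13). Pericytes also express Cspg4, and fibroblasts of the meninges also express Pdgfra and Apod.

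Among the factors the ratio of the highest to the lowest WT mean ran from 2.93 for Sox10 to 3.89 for Olig1, and the cerebellum was lowest for 4 of the 5, the cortex for Myrf. Olig1 was higher in the striatum than in the brainstem (brainstem minus striatum -0.35, SE 0.13, adjusted p = 0.019), and Olig2 was lower (0.23, SE 0.09, adjusted p = 0.038).

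How tightly these genes were measured differed by region. In the WT striatum the median SD of log2 CPM between mice was 0.361 for sheath genes and 0.167 for precursor genes, against 0.206 for all genes tested, whereas in the WT brainstem it was 0.0996 for sheath genes and 0.115 for all genes. Mbp in the WT striatum was 4848, 5108, 8186 and 4799 CPM in the WT mice, in the order WT-70 and WT-77, then WT-220 and WT-221. WT-220 was far above the other WT mice. The 14 sheath genes together took 0.832% to 1.40% of counts in the WT striatum, 1.42% to 1.64% in the WT brainstem and 0.461% to 0.568% in the WT cerebellum.

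Gpd1 was the member with the largest difference between genotypes in the striatum and cortex. Its WT levels across regions did not follow those of the other members, and which cells carried its difference was not tested. In the striatum it measured 80.9, 83.0, 77.4 and 80.7 CPM in WT mice, 38.0, 35.0, 36.3 and 36.1 CPM in 154Q mice, and 44.7, 40.9, 49.2 and 42.3 CPM in 154QAXH mice. Every mutant library lay below every WT library, and every 154QAXH library above every 154Q library. Gpd1 fell by 1.15 on the log2 scale in 154Q (SE 0.06, adjusted p = 1.5e-06) and by 0.86 in 154QAXH (SE 0.06, adjusted p = 4.5e-05). It was the 1 member called in the striatum in each mutant, where 5.69% of all genes tested were called in 154Q and 1.35% in 154QAXH. In the cortex Gpd1 was 81.6, 66.8, 66.6 and 75.3 CPM in WT, 36.6, 34.4, 33.1 and 42.9 CPM in 154Q and 38.5, 40.7, 41.8 and 43.2 CPM in 154QAXH. Again the mutant and WT libraries did not overlap, with a fall of 0.98 in 154Q (SE 0.08, adjusted p = 7e-06) and of 0.82 in 154QAXH (SE 0.08, adjusted p = 3.6e-05). Gpd1 shares 13% of its exon bases with the gene model Gm16537, and reads were counted without strand.

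In the hippocampus Gpd1 was 67.1, 73.4, 79.1 and 76.01 CPM in WT, 46.2, 48.3, 55.0 and 61.7 CPM in 154Q, and 54.3, 58.8, 50.5 and 62.0 CPM in 154QAXH. It fell by 0.48 in 154Q (SE 0.09, adjusted p = 0.012), and its difference in 154QAXH was -0.39 (SE 0.09, adjusted p = 0.063), although no library of either mutant reached a WT library. In the brainstem the values were 80.0, 88.2, 82.5 and 76.8 CPM in WT, 65.6, 73.0, 70.1 and 71.5 CPM in 154Q and 73.9, 76.6 and 79.9 CPM in 154QAXH. All 154Q brainstems were below the WT ones, but the difference of -0.23 (SE 0.05, adjusted p = 0.070) did not pass. In the cerebellum, where the gene was most abundant, the libraries of the genotypes overlapped, and the log2 differences were 0.07 (2 SE interval -0.12 to 0.26) in 154Q and 0.03 (-0.16 to 0.22) in 154QAXH. The fold in 154Q thus ran from 0.452 in the striatum to 1.05 in the cerebellum. A test of the genotype by region interaction over the 40 WT and 154Q libraries called Gpd1 (adjusted p = 1.88e-07) and 1 other member, Cdk18, against 5.71% of all genes tested.

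**Figure D2:**
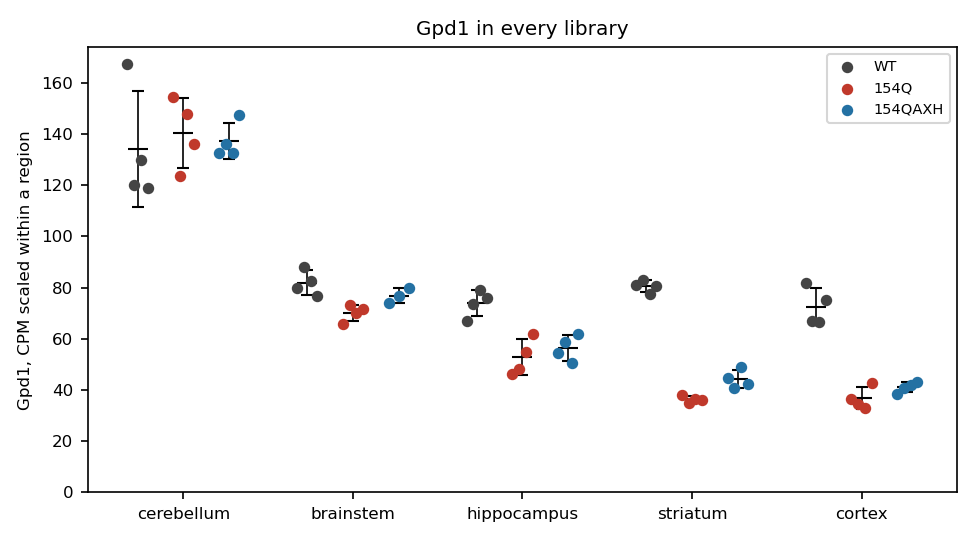
Gpd1 level in CPM scaled within a region (y axis, from 0) in each library of WT, 154Q and 154QAXH mice by region. Points are libraries, the horizontal bar is the mean and the whisker 1 SD. In striatum and cortex all mutant libraries lie below 50 CPM and all WT libraries above 66 CPM, while in the cerebellum the 3 groups overlap.

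Outside Gpd1, few of the 34 genes passed the test in any region, while their levels leaned to one side together. The members are not independent of each other, since they share the same mice and the same cells. In the 154Q cortex all 34 genes had a log2 difference below 0, with a median of -0.22 against 0.01 for all genes tested. There, 4 genes were called (background 11.1%), all lower: Gpd1, Fa2h, Bcas1 and Olig1. In the 154Q striatum 33 of 34 were below 0, with a median of -0.48 (all genes -0.01), yet only Gpd1 was called. Without WT-220 the striatal median was -0.29, with 34 of 34 below 0. In the 154Q brainstem 30 were below 0 with a median of -0.15 (all genes 0.00), and 1 was called, Gpr17 (background 0.538%). In the 154Q cerebellum 26 were below 0 with a median of -0.08 (-0.13 without WT-220 and -0.04 without WT-70 or WT-77), and 0 were called by edgeR (background 5.22%), with 4 at an unadjusted p under 0.05 and 0 called by DESeq2. In the 154Q hippocampus 5 were below 0 and the median was 0.19, with Gpd1 the 1 gene called (background 5.91%). Without the library of 154Q-76 that median was -0.03 and 22 of 34 were below 0.

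**Figure D3:**
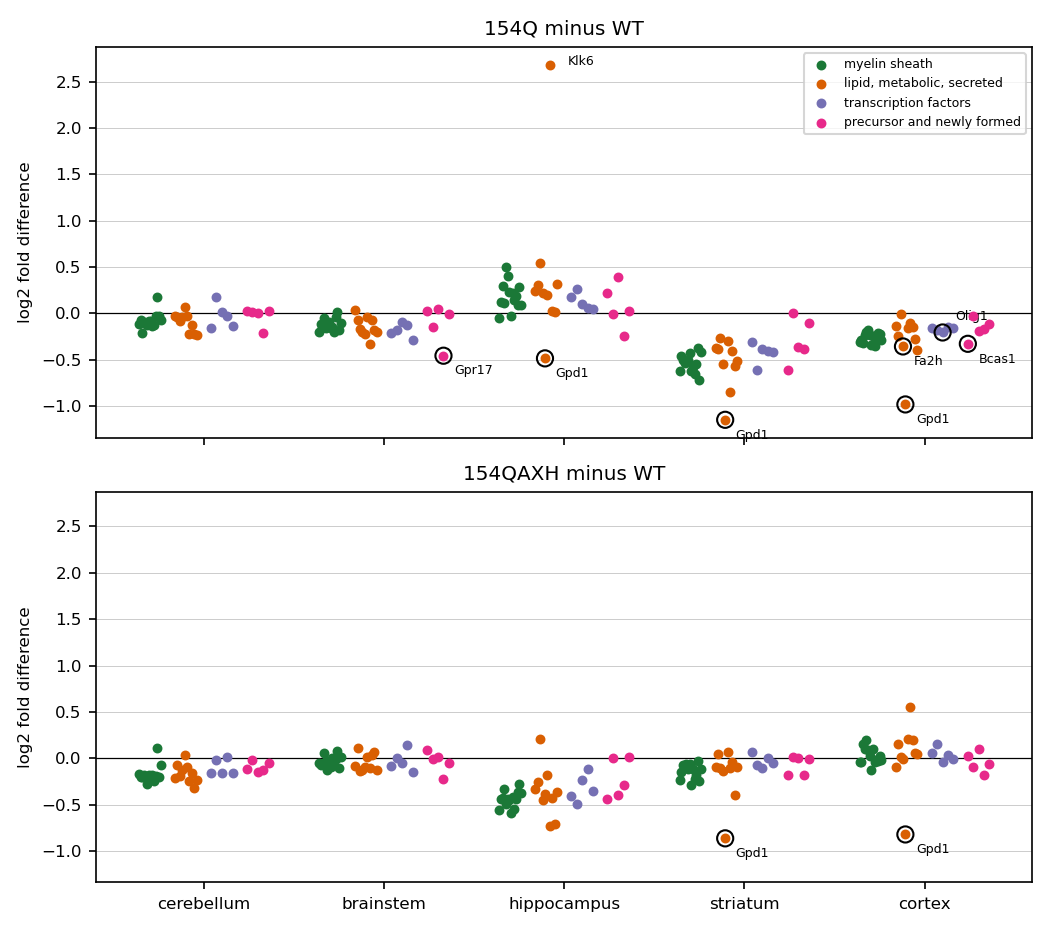
Log2 fold difference from WT (y axis) of each of the 34 genes in 5 regions, for 154Q (top) and 154QAXH (bottom), coloured by group. Circles mark genes called by edgeR. The 154Q points lie below 0 in striatum and cortex, the hippocampal 154Q value of Klk6 (2.68, not called) stands alone at the top, and the circled 154QAXH points are Gpd1 in striatum and cortex.

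In the 154Q cortex Fa2h measured 37.1, 38.1, 45.1 and 44.8 CPM in WT and 30.8, 32.9, 30.2 and 35.2 CPM in 154Q. The groups did not overlap, and Fa2h fell by 0.36 (SE 0.09, adjusted p = 0.015). Bcas1 was 124, 132, 150 and 142 CPM in WT and 99.3, 113, 98.2 and 126 CPM in 154Q. The level in 154Q-76 lay within the WT range, and it fell by 0.33 (SE 0.08, adjusted p = 0.020). Olig1, a basic helix-loop-helix factor of the lineage, was 126, 125, 133 and 136 CPM in WT and 108, 114, 108 and 120 CPM in 154Q. It fell by 0.21 (SE 0.05, adjusted p = 0.022) with no overlap. Calls of these 3 genes were lost when WT-220 or WT-221 was left out, and with WT mice of the 154Q number series alone. Bcas1 and Olig1 also lost theirs without 154Q-69 or 154Q-75. With the cortical libraries of 154Q-76 and 154Q-AXH-207 exchanged, as the file names have them, Bcas1 differed by -0.29 (adjusted p = 0.0775) and Olig1 by -0.18 (adjusted p = 0.0617), while Fa2h kept its call (-0.33, adjusted p = 0.038) and Ugt8a was called as well. The cortical astrocyte list moved with them: 8 of its 12 genes were called and lower in 154Q (background 11.1%). The 12 together summed to 4216 to 4449 CPM in WT and 3422 to 3939 CPM in 154Q. Of 12 neuron genes 6 were called, 5 of them lower, with a summed level of 9471 to 10135 CPM in WT and 8167 to 9259 CPM in 154Q. Of 12 microglial genes 0 were called with 0 at an unadjusted p under 0.05. The part of these other cells in the result was not tested.

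Sheath genes in the 154Q cortex had a median log2 difference of -0.26 (14 of 14 below 0, median SE 0.11). Mbp was 2926, 2878, 3534 and 3231 CPM in WT and 2406, 2718, 2302 and 3175 CPM in 154Q, which overlapped through 154Q-76. Its log2 difference of -0.25 (SE 0.10) had an adjusted p of 0.15. Members with every 154Q cortex below every WT cortex numbered 4, Evi2a, Fa2h, Gpd1 and Olig1, where 8.01% of all genes did so. Without 154Q-76 they numbered 10, where 10.2% of all genes did so.

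The 154Q striatum had the most members in which the groups did not overlap. In 21 of 34 genes every 154Q library was below every WT library, against 8.94% of all genes tested. These were 10 of 14 sheath genes, 4 of 10 lipid, metabolic and secreted genes and 4 of 5 factors. Of the 5 genes of precursors and newly formed cells they were 3, Gpr17, Enpp6 and Bcas1, and not Pdgfra or Cspg4. Mobp, for example, was 1416, 1792, 2404 and 1444 CPM in WT and 1157, 1310, 1034 and 998 CPM in 154Q. The lowest WT mouse stood just above the highest 154Q mouse, and the difference of -0.65 (SE 0.25) had an adjusted p of 0.14. Olig2, which specifies the lineage, was 38.2, 35.2, 46.5 and 38.4 CPM in WT and 32.6, 27.7, 30.7 and 28.4 CPM in 154Q (difference -0.41, SE 0.14, adjusted p = 0.097). Nkx6-2, which acts late in the lineage, was 24.9, 23.5, 42.6 and 22.2 CPM in WT and 19.6, 18.7, 17.8 and 18.3 CPM in 154Q, and its difference of -0.61 (SE 0.25) had an adjusted p of 0.16. Both were without overlap and neither was called. Without WT-220 the count stayed at 21 (all genes 14.2%), and without WT-221 it was 25 (10.6%).

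Among the striatal genes of precursors and newly formed cells, Gpr17 was 52.0, 48.5, 59.2 and 62.4 CPM in WT and 45.8, 44.3, 42.0 and 38.5 CPM in 154Q (difference -0.38, SE 0.12, adjusted p = 0.090). Bcas1 was 204, 228, 329 and 208.6 CPM in WT and 174, 166, 145 and 149 CPM in 154Q (difference -0.61, SE 0.21, adjusted p = 0.10). Neither gene overlapped between the genotypes. Cspg4 was 15.4, 15.5, 13.2 and 15.5 CPM in WT and 15.9, 16.4, 14.3 and 13.0 CPM in 154Q, and the interval of its difference ran from -0.28 to 0.28. Pdgfra overlapped as well, with a difference of -0.10 (2 SE interval -0.24 to 0.05). Beside these values, 3 of 12 astrocyte genes were called and lower in the 154Q striatum (background 5.69%). The 12 together summed to 3778 to 4253 CPM in WT and 3051 to 3404 CPM in 154Q. The 14 brainstem neuron and hindbrain genes summed to 8.88 to 24.6 CPM in the WT striatum and 3.47 to 5.57 CPM in 154Q, without overlap, and 2 of them passed the filter on low counts, with 0 called by edgeR and 1 at an unadjusted p under 0.05. A list of Schwann cell genes summed to 75.3 to 132 CPM in the WT striatum and 127 to 156 CPM in 154Q. The same list summed to 65.8 to 71.1 CPM in the WT brainstem and 120 to 134 CPM in the WT cortex, so its sum was not read as a level of Schwann cells. The part of other cells in the striatal values was not tested.

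**Figure D4:**
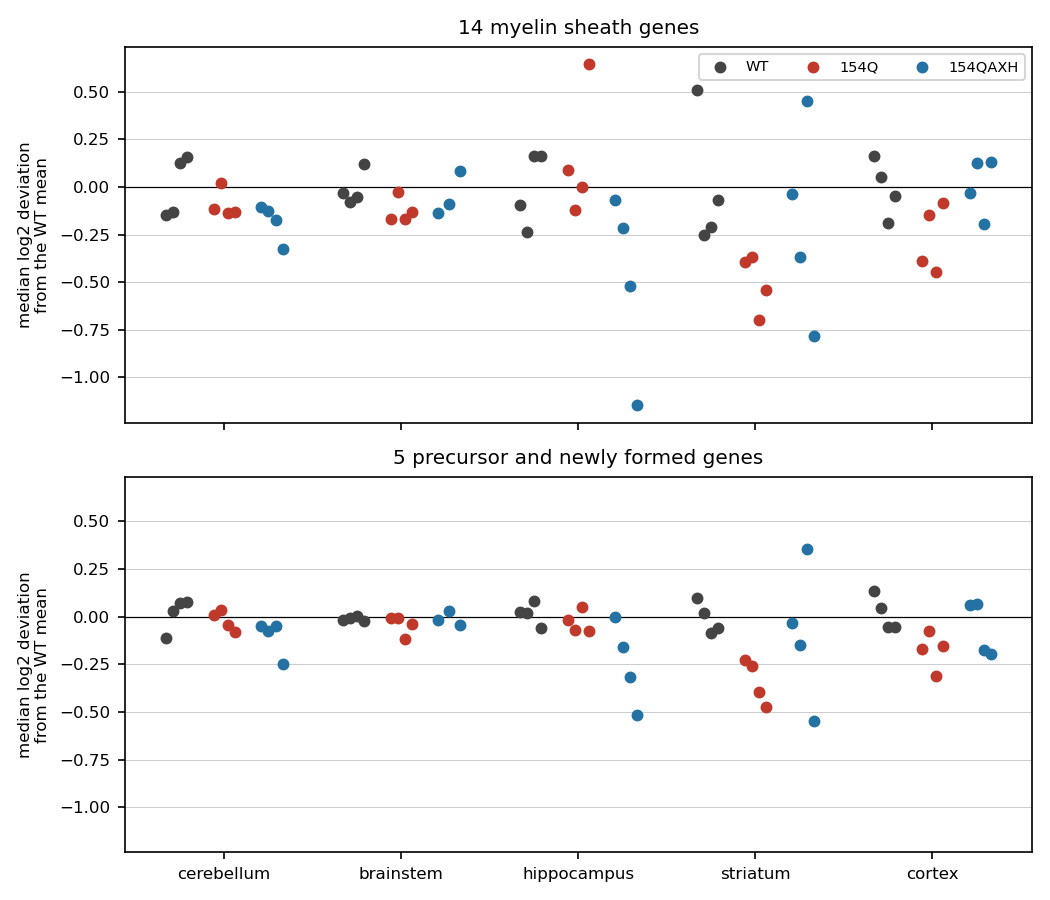
Median log2 deviation from the WT mean of the region (y axis) over the 14 sheath genes (top) and the 5 precursor and newly formed genes (bottom), 1 point per library. In the striatum the 154Q points lie from -0.70 to -0.37 for sheath genes while WT-220 stands at 0.51, and in the hippocampus 154Q-76 stands at 0.64 and 154Q-AXH-218 at -1.15.

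In the 154Q brainstem the differences were smaller, and so was the spread between mice. Gpr17 was 44.5, 40.1, 45.9 and 50.5 CPM in WT and 33.1, 35.6, 28.3 and 34.8 CPM in 154Q. The groups did not overlap, and Gpr17 fell by 0.46 (SE 0.08, adjusted p = 0.024). The call was lost without WT-70, WT-220, WT-221 or 154Q-69, where the log2 difference kept its sign. Klk6 was 62.1, 52.2, 60.3 and 54.6 CPM in WT and 47.5, 43.1, 43.5 and 47.8 CPM in 154Q, a difference of -0.33 (SE 0.07) with an adjusted p of 0.051. Sox10 was 85.8, 88.7, 96.5 and 94.5 CPM in WT and 76.4, 80.6, 66.4 and 76.9 CPM in 154Q, a difference of -0.28 (SE 0.06) with an adjusted p of 0.084. For 14 of 34 genes every 154Q brainstem was below every WT brainstem, where 3.22% of all genes did so. These 14 were 5 sheath genes, 5 lipid, metabolic and secreted genes, 3 factors and Gpr17. An unadjusted p under 0.05 was found for 17 genes, and the share of all genes at that p is not given. Pdgfra measured 56.1, 55.1, 58.1 and 54.3 CPM in WT and 55.9, 56.1, 57.3 and 54.0 CPM in 154Q, and the interval of its difference ran from -0.07 to 0.07. Of 12 astrocyte genes 3 were called and lower in the 154Q brainstem (background 0.538%). The 12 together summed to 6327 to 7234 CPM in WT and 5488 to 5764 CPM in 154Q. The 12 neuron genes, 1 of them called and lower, summed to 11500 to 11961 CPM in WT and 10605 to 11445 CPM in 154Q, also without overlap. The part of these cells was not tested.

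The 154Q cerebellum held 2 members without overlap below WT, where 5.38% of all genes did so. Ermn was 109, 101, 106 and 111 CPM in WT and 89.8, 91.7, 97.9 and 88.8 CPM in 154Q (difference -0.21, SE 0.07, adjusted p = 0.12). Ugt8a was 105, 102, 102 and 107 CPM in WT and 85.9, 90.9, 93.4 and 84.5 CPM in 154Q (difference -0.23, SE 0.08, adjusted p = 0.11). The other 32 genes overlapped between the genotypes, and the 5 genes of precursors and newly formed cells had a median difference of 0.02. Of 12 astrocyte genes 2 were called and lower in the 154Q cerebellum (background 5.22%). The 12 together summed to 6423 to 6958 CPM in WT and 5721 to 6112 CPM in 154Q, and their part was not tested.

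In the 154Q hippocampus Gpd1 was the 1 member below WT without overlap, where 7.26% of all genes were so. Cdk18, a cyclin-dependent kinase of the PCTAIRE family, lay the other way, at 19.6, 17.4, 17.6 and 14.6 CPM in WT and 20.8, 24.1, 23.4 and 32.8 CPM in 154Q. No library overlapped, and the difference of 0.55 (SE 0.18) had an adjusted p of 0.092. That difference includes the library of 154Q-76, the highest at 32.8 CPM. Without 154Q-76 Cdk18 still did not overlap. The Cdk18 differences in 154Q were -0.26 in the striatum, -0.17 in the brainstem, -0.08 in the cerebellum and -0.01 in the cortex, and its interaction with region was called (adjusted p = 0.00612). That call was lost when every region of mouse 154Q-76, or of mouse WT-221, was left out, and it held without the hippocampal library of 154Q-76 alone (adjusted p = 0.0224).

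The hippocampal library of 154Q-76 carried a distinct pattern in these genes. Klk6 was 1.66, 0.842 and 0.682 CPM in 154Q-69, 154Q-71 and 154Q-75 and 23.0 CPM in 154Q-76, against 0.734 to 1.66 CPM in WT. 154Q-76 alone was high, and the fitted difference of 2.68 (SE 1.01, adjusted p = 0.14) became 0.01 without it. Relative to the mean of the other 3 154Q hippocampi, 31 of 34 genes were higher in 154Q-76. Across the 34 genes these deviations and the WT difference between brainstem and hippocampus had a Pearson r of 0.971 and a Spearman rho of 0.935, and a Pearson r of 0.935 without Klk6. Genes are not independent replicates and all deviations come from 1 library, so no p is given. The other 3, Pdgfra, Cspg4 and Gpr17, are precursor genes.

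**Figure D5:**
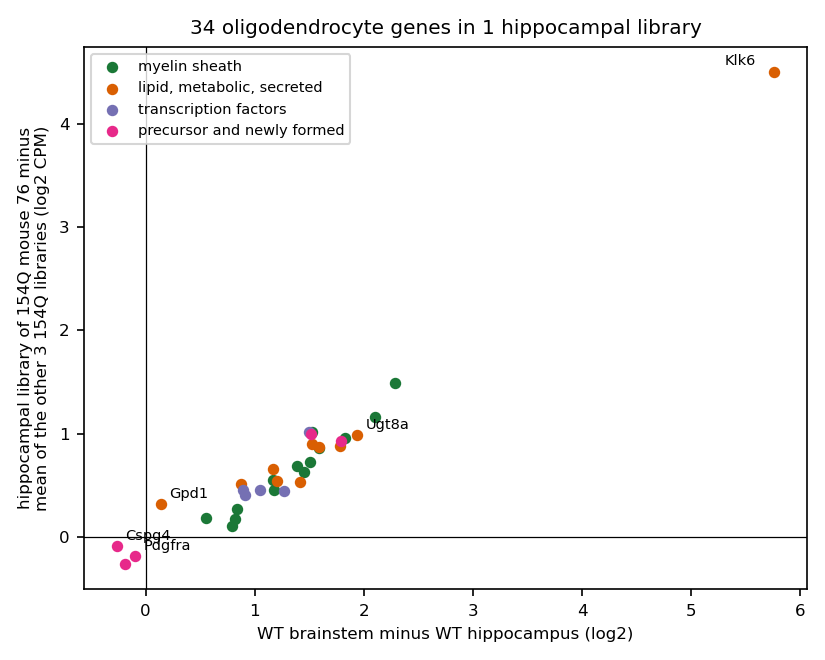
Deviation of the hippocampal library of 154Q-76 from the mean of the other 3 154Q hippocampi (y axis, log2 CPM) against the WT difference between brainstem and hippocampus (x axis, log2) for the 34 genes, coloured by group. The points rise together from Cspg4, Gpr17 and Pdgfra at the lower left to Klk6 at the upper right (r = 0.971).

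In 154QAXH mice the lean of the 34 genes differed by region. The hippocampus had the lowest median log2 difference from WT, -0.40, followed by the cerebellum (-0.17), striatum (-0.10), brainstem (-0.05) and cortex (0.03), with all-gene medians between -0.01 and 0.00. Members below 0 numbered 31, 31, 28, 23 and 15 of 34 in that order. With WT mice of the 154QAXH number series alone, the medians in the same order were -0.27, -0.05, -0.25, 0.01 and -0.08. Members below 0 then numbered 31, 24, 32, 16 and 26. Single libraries also moved the medians. Without 154Q-AXH-218 the hippocampal median was -0.24, with 30 of 34 below 0. In the striatum the median was -0.34 without 154Q-AXH-217, 0.05 without 154Q-AXH-218 and 0.10 without WT-220. Leaving out 1 library moved it between -0.10 and 0.01 in the brainstem, with the highest value without WT-77, and between -0.03 and 0.06 in the cortex. In the cerebellum 0 members were called by edgeR (background 2.21%), 11 had an unadjusted p under 0.05 and 1, Hapln2, was called by DESeq2. In the brainstem, with 3 libraries, 0 were called (background 0.0138%), 6 had an unadjusted p under 0.05 and DESeq2 called 0. In the hippocampus 0 were called (background 1.3%), 10 had an unadjusted p under 0.05 and DESeq2 called 1, Gpd1. In the cortex the 1 call, Gpd1, stood against a background of 7.15%.

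Members with every 154QAXH library below every WT library were Cnp, Ermn, Hapln2 and Ugt8a in the cerebellum, 4 against a background of 4.14%. There was 1 in each other region: Cdk18 in the brainstem (background 4.3%), and Gpd1 in the hippocampus (5.79%), the striatum (3.86%) and the cortex (8.15%). Hapln2, which encodes a link protein of the matrix at nodes of Ranvier, was 42.2, 43.8, 37.2 and 36.9 CPM in the WT cerebellum and 35.1, 35.6, 31.8 and 30.01 CPM in 154QAXH. All mutant libraries were below WT, and the difference of -0.27 (SE 0.07) had an adjusted p of 0.057. In the 154QAXH hippocampus Mbp was 2723, 2447, 1806 and 1252 CPM in the 4 mice, the last of them 154Q-AXH-217 and then 154Q-AXH-218, against 2400 to 3164 CPM in WT. 154Q-AXH-217 and 154Q-AXH-218 lay below the WT range and the other two within it, and the difference of -0.42 had a 2 SE interval from -0.91 to 0.08. In the striatum Mbp was 5613, 4526, 7721 and 3344 CPM in the 154QAXH mice, in the same order. WT-220 had 8186 CPM and the other WT mice 4799 to 5108 CPM. 154Q-AXH-207 and 154Q-AXH-217 lay within the range of all WT mice, and 154Q-AXH-209 and 154Q-AXH-218 below it.

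The 2 mutants were also set against each other. In the striatum all 34 genes were higher in 154QAXH than in 154Q, with a median of 0.37 (32 higher and 0.13 without 154Q-AXH-217), and in the cortex 32 were higher, with a median of 0.27. In the brainstem 31 were higher (median 0.10, or 0.04 without 154Q-AXH-218), whereas in the cerebellum 31 were lower (median -0.08, or -0.02 without 154Q-AXH-218), as were 32 in the hippocampus (median -0.56, or -0.38 without 154Q-76). By edgeR 0 members were called in any of the 5 regions, where 0.0335% of all genes were called in the cerebellum and 0% in each of the brainstem, hippocampus, striatum and cortex. DESeq2 also called 0, and the numbers of members at an unadjusted p under 0.05 were 26 for the hippocampus, 22 for the cortex, 8 for the brainstem, 2 for the striatum and 1 for the cerebellum. The share of all genes at that p is not given, and the hippocampal count includes the library of 154Q-76. Gpd1 in the striatum was higher in 154QAXH by 0.28 (2 SE interval 0.16 to 0.41), with an adjusted p of 0.94, and in the cortex by 0.16 (-0.01 to 0.33). Fa2h in the cortex was 37.7, 43.7, 36.6 and 46.2 CPM in 154QAXH, all above the 154Q libraries, a difference of 0.35 (0.17 to 0.52) with an adjusted p of 0.74. Mbp in the cortex was 3260, 3645, 2886 and 3703 CPM in 154QAXH, a difference of 0.35 from 154Q (0.14 to 0.56, adjusted p = 0.74).

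Further genes of the lineage were taken from lists of 42 other mature oligodendrocyte genes, 27 other precursor and newly formed genes and 16 genes of cholesterol synthesis, the sterol on which myelin depends. Of the 42 mature genes, 5 were called in the 154Q cortex, where 11.1% of all genes were called, and 1 each in the striatum (background 5.69%), brainstem (0.538%) and cerebellum (5.22%), all lower. In the hippocampus 0 were called by edgeR (5.91%), with 2 at an unadjusted p under 0.05. The cortical count lies near its background. Their median differences were -0.22, -0.41, -0.12, -0.08 and 0.17 in that order, and the hippocampal median was -0.03 without 154Q-76. Among them Tppp, which encodes a tubulin polymerization-promoting protein, fell in the 154Q cortex by 0.36 (SE 0.05, adjusted p = 0.000318) and in the 154QAXH cortex by 0.24 (SE 0.05, adjusted p = 0.0077). Adamts4, a metalloproteinase of mature oligodendrocytes, fell in the cerebellum by 0.21 in 154Q (SE 0.06, adjusted p = 0.0435) and by 0.26 in 154QAXH (SE 0.06, adjusted p = 0.027).

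Of the 27 precursor genes, 2 were called in the 154Q striatum and 3 in the 154Q cortex, close to the 5.69% and 11.1% of all genes, with 0 called by edgeR in the other 3 regions (6, 5 and 2 at an unadjusted p under 0.05 in the cerebellum, brainstem and hippocampus). Emid1 was the called gene that rose: by 0.87 in the striatum (SE 0.10, adjusted p = 0.000562) and by 1.03 in the cortex (SE 0.14, adjusted p = 0.000318) of 154Q mice, and by 0.78 (SE 0.10, adjusted p = 0.00273) and 0.87 (SE 0.15, adjusted p = 0.00184) in 154QAXH. Neu4, a sialidase, and Sox8, a factor related to Sox10, fell in the 154Q cortex by 0.34 (SE 0.08, adjusted p = 0.0119) and 0.31 (SE 0.08, adjusted p = 0.0197). Of the 16 cholesterol genes, 2 were called and lower in the 154Q striatum (background 5.69%) and 6 in the cortex of each mutant (11.1% in 154Q and 7.15% in 154QAXH). Cyp51, the lanosterol demethylase, fell in the cortex by 0.28 in 154Q (SE 0.04, adjusted p = 0.000363) and by 0.21 in 154QAXH (SE 0.04, adjusted p = 0.00447). Neurons and astrocytes make these sterols too.

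Some members cannot be read cleanly from these counts. Trf, which encodes transferrin, shares 63.5% of its exon bases with the gene model Gm20425 and measured 0.278 to 0.597 CPM per kb in WT means, so it is reported as uncertain. Evi2a shares 19.2% with Evi2, Nkx6-2 12.9% with Inpp5a, and Bcas1 12.6% with models named after its antisense strand.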

How the data were processed

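Per the labels and the study's methods, polyA RNA of 5 regions was sequenced, reads were trimmed with Trimmomatic 0.36 and aligned with STAR 2.7.2d to GRCm38.p6, and the authors deposited raw read counts per gene from STAR for each library. The unstranded counts column was used here, without the summary lines, and read pairs were not tied to molecules. Symbols and exon lengths came from GENCODE M21. Each region was fitted over all its libraries and 3 genotypes with edgeR 4.0.16 in R 4.3.3 (TMM scaling, filterByExpr, quasi-likelihood F test, Benjamini-Hochberg adjustment over all genes tested, threshold 0.05), a fit that pools the spread of all genotypes. WT regions were fitted over 20 libraries and the interaction over 40. SE was computed as the size of the log2 fold change over sqrt(F), and intervals are 2 SE. Levels per kb divide CPM by exon length. The scripts were tested on simulated data. The members and the other lists were chosen with earlier results of these data known. All 34 members could be named, and of other lists at most the 3 called genes with the lowest adjusted p in a comparison. Within a region, samples are separate mice. The mouse number in the labels was taken to pair the regions of 1 animal. As a check, residual correlations of libraries of the same mouse had a median of -0.00139 (-0.245 to 0.375 over 40 pairs, 8 above 0.1), and those of different mice 0.00263 (-0.31 to 0.266 over 120 pairs, 17 above 0.1). Both medians lay near 0, so the check did not bear out the pairing. Alternatives were DESeq2 1.42.0, its size factors, no filter on low counts, 2 genotypes, the mouse number series, the level of the choroid plexus gene Ttr, the cortical pair exchanged or removed, a replicate block and leaving out each library. Authors' comparison tables were not used here.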

Additional observations from a re-analysis of the deposited data

Results flagged for a closer look

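For 11 of the genes given by library, 154 groups of 4 libraries were examined for 1 library far from the other 3 (gap over range above Dixon's 95% critical value), and 11 groups, 7.14%, had one. Chance alone flags about 1 group in 20. WT-220 was high in the striatum for Mbp (8186 CPM, others 4799 to 5108), Fa2h (98.13 CPM, others 59.62 to 64.46) and Sox10 (98.49 CPM, others 65.16 to 70.56). In the hippocampus 154Q-76 was high for Klk6 (22.96 CPM, others 0.6821 to 1.663) and Bcas1 (308.2 CPM, others 144.6 to 163.3). 154Q-76 was also high for Ugt8a in the cortex (47.27 CPM, others 37.54 to 39.12) and for Pdgfra in the cerebellum (25.51 CPM, others 23.96 to 24.14). In the cerebellum 154Q-71 was high for Olig1 (51.91 CPM, others 45.17 to 46.14) and Cdk18 (14.22 CPM, others 11.08 to 11.51). WT-70 was high there for Klk6 (22.73 CPM, others 17.75 to 18.44), and 154Q-AXH-218 was low for Cdk18 (9.087 CPM, others 11.69 to 12.13).

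The difference between 154Q and WT itself differed between regions for Gpd1 (interaction adjusted p = 1.88e-07 by edgeR, the fold being lowest in the striatum at 0.452 and highest in the cerebellum at 1.05) and for Cdk18 (adjusted p = 0.00612). By the same test 25 of the 34 genes had an unadjusted p under 0.05, a count without the share of all genes beside it. By adjusted p in that test, Klk6 (adjusted p = 0.0529) and Bcas1 (0.0642) came next. The fit behind these values and the 25 genes kept the hippocampal library of 154Q-76, where Klk6 and Bcas1 were high. These values therefore cannot be read apart from that library.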

How the results depend on the processing

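The Gpd1 falls in the striatum and cortex of both mutants were called under each of the 19 striatal and 21 cortical alternatives, with log2 differences of -1.17 to -1.12 and -1.06 to -0.92 in 154Q. No difference that was called turned its direction under any alternative run. The other counts of called members in 154Q against WT moved with the processing. The share of all genes called under each alternative is not given, so the counts in this section cannot be read as particular to the members. With DESeq2 they were 7 in the brainstem (1 with edgeR), 9 in the cortex (4), 2 in the hippocampus (1) and 2 in the striatum (1). Without a filter on low counts they were 2 in the brainstem and 8 in the cortex. With only the 2 genotypes compared they were 0 in the brainstem, 2 in the cerebellum and 4 in the striatum. After adding the number series to the model, and with WT mice of the 154Q series alone, they were 0 in the brainstem, 4 in the cerebellum, 1 in the cortex and 0 in the hippocampus, where Gpd1 lost its call. These settings amount to the same fit, since each mutant lies within 1 number series. Their match is therefore no further support, although both are counted among the 19 and 21 alternatives. In that fit the median difference over the 34 genes in 154Q was -0.29 in the striatum, -0.12 in the cortex, -0.19 in the cerebellum and 0.05 in the hippocampus. Leaving out 1 library gave 0 to 2 in the brainstem, 0 to 2 in the cerebellum, 1 to 9 in the cortex and 1 to 4 in the striatum. In the cortex the count was 1 without WT-220 or WT-221, 2 without 154Q-69 or 154Q-75, 7 without WT-70 and 9 without 154Q-76. In the striatum it was 4 without 154Q-AXH-217. For 154QAXH against WT, DESeq2 and the Ttr covariate each gave 1 in the cerebellum and 1 in the hippocampus, the 2-genotype fit gave 1 in the hippocampus, and leaving out 1 library gave 0 to 1 in both.

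With the mouse as a replicate block, 34, 32, 26 and 31 members differed between WT brainstem and cerebellum, hippocampus, striatum and cortex, and 2 in the interaction, so the paired fits moved no count by over 1.5 times. Leaving out 1 mouse gave 1 to 4 in the interaction. An alternative without the cortical library of WT-221 was chosen after seeing the data and moved no count by that much. The medians over the 34 genes and the counts without overlap were also recomputed after seeing the data. Within a region each mouse gave 1 library, so no paired fit of the genotypes was possible. The 4 libraries in a group, the striatal spread of sheath genes and the number series that separates the mutants limit these comparisons. The cause of the moved counts was not tested.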
